A study of Mus musculus with 27 samples.

Results

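Runx2 occupancy was mapped by ChIP-seq in control mK4 cells and in Runx1KO cells, and the peaks of the 2 lists were compared in number, place, strength, width and summit. The members were all peaks of both lists, 17595 in control cells and 15608 in Runx1KO cells, together 33203 of the 99039 peaks in all lists of the series. A control peak was called matched when it overlapped a Runx1KO peak by at least 1 bp, and the remaining peaks were called control-only or Runx1KO-only. mK4 is a mouse line derived from the metanephric mesenchyme of the embryonic kidney. Control cells were the parental line. Runx1KO cells were sub-lines of it in which CRISPR/Cas9 with 2 guides removed the third exon of Runx1, which holds the start codon used in these cells. They were picked as clones after puromycin, and the number of clones sequenced was not given, so clone and genotype cannot be told apart. The series also holds Runx1 ChIP-seq of control cells, and RNA-seq and ATAC-seq of both lines. By the study's methods the Runx2 reads of 3 replicates per line were combined before peak calling, but the peak names of each list carry 1 library name, and whether a list stands for 3 libraries or for 1 could not be settled. In either case each line has 1 list, with no replicate error and no test across replicates. Intervals below are 95% Wilson intervals for shares, and they cover counting error only.

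Runx1, Runx2 and Runx3 are transcription factors that share a Runt domain, bind DNA together with the non-DNA-binding partner Cbfb, and recognise the sequence TGTGGT. Runx1 is best known as a regulator of blood formation and Runx2 as the regulator of bone formation, and both can recruit corepressors of the Tle family as well as coactivators. Since the family members read the same sequence, a site bound by one member can be bound by another. The comparison asks where Runx2 was found when Runx1 was present and when it was missing.

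The sequences below show the DNA under 8 of these peaks, so that the binding sequence and its absence from parts of a peak can be seen directly. Each is the plus strand of 200 bp around the summit in mm9, with TGTGGT, the related TGCGGT, and their reverse complements ACCACA and ACCGCA in capitals. The Hmgn1 window (chr16:96335663-96335862, intergenic) and the Fam71f1 window (chr6:29276937-29277136, in an intron) belong to pairs that were among the 5 with the highest mean fold of both lines. The Akap14 window (chrX:34719016-34719215, intergenic) and the Cntn3 window (chr6:102070111-102070310, intergenic) lie under the strongest control-only peaks. The Akap7 window (chr10:24792527-24792726, intergenic) and the Kctd10 window (chr5:114806962-114807161, in an intron) lie under strong Runx1KO-only peaks. The Pcdh10 window (chr3:43749882-43750081, intergenic) and the Ano10 window (chr9:122185443-122185642, in an intron) lie under matched peaks whose enrichment fell in Runx1KO cells.
Hmgn1: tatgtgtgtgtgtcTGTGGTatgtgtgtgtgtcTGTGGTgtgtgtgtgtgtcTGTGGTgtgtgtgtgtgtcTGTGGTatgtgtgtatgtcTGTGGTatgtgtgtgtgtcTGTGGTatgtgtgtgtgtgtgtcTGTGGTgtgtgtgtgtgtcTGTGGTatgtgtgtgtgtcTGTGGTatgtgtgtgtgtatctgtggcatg
Fam71f1: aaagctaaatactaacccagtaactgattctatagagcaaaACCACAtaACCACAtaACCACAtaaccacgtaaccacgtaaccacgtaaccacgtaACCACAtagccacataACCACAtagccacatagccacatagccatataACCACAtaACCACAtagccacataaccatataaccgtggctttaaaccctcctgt
Akap14: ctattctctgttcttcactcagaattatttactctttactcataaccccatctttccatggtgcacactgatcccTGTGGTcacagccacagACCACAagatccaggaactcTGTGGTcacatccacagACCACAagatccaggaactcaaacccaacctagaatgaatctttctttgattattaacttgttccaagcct
Cntn3: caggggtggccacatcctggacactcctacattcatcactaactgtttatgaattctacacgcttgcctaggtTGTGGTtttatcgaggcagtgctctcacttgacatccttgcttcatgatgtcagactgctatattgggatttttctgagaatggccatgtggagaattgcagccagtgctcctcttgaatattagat
Akap7: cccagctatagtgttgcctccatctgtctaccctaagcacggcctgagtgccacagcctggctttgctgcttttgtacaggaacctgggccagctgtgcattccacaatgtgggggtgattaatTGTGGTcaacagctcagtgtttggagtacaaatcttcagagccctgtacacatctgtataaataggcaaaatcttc
Kctd10: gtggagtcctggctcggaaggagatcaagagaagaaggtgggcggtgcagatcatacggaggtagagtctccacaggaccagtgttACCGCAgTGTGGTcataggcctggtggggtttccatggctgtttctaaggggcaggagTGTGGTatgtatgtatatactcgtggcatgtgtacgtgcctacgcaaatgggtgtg
Pcdh10: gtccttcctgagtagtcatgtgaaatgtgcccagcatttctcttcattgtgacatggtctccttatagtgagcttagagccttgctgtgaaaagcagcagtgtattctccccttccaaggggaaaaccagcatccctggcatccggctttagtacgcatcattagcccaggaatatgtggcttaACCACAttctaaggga
Ano10: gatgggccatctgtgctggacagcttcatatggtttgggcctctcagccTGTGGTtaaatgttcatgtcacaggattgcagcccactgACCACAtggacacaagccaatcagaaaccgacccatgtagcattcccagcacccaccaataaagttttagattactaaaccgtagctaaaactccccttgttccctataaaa
The Hmgn1 window held 9 copies of TGTGGT in a repeated unit and the Fam71f1 window held 7, while the Akap14 window held 4, the Kctd10 and Ano10 windows 2 each, and the Cntn3, Akap7 and Pcdh10 windows 1 each. The Kctd10 window also held 1 TGCGGT.

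In control cells 10907 of 17595 Runx2 peaks (62.0%, interval 61.3 to 62.7) overlapped a Runx1KO peak. In Runx1KO cells 10808 of 15608 peaks (69.2%, 68.5 to 70.0) overlapped a control peak. Hence 6688 peaks were control-only and 4800 were Runx1KO-only. In 10103 cases a control peak and a Runx1KO peak overlapped only each other, and these unique pairs were used to compare strength. Within unique pairs the shared stretch covered a median 92.2% of the control peak and 83.2% of the Runx1KO peak. Summits lay a median 46 bp apart, and 80.6% of the pairs had summits within 100 bp of each other.

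The lists differed in the level at which a peak could be called. MACS2 compares the fragments piled up at a summit with a local background that cannot fall below a genome-wide value. That value depends in part on the total of reads. This lowest background was 3.09 fragments in the control list and 3.92 in the Runx1KO list. The smallest pileup of a peak was 11 fragments in control cells and 13 in Runx1KO cells. Median pileup was 19 in control cells and 24 in Runx1KO cells, median fold enrichment over background was 4.195 and 4.10, and median width was 216 bp and 257 bp. The number of reads behind each list was not given in the files used here. Peaks are numbered in the lists, and 2280 of 19875 numbers (11.5%) were absent from the control list and 1428 of 17036 (8.38%) from the Runx1KO list, from both of which the authors had removed regions that the Runx1 antibody also enriched in cells without Runx1. The pileups are not reads per sample but whole fragments recovered from the deposited fold and p-values, and they limit how firmly a weak peak can be called present in one line and missing in the other.

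Unmatched peaks were the weaker part of both lists. Median fold was 4.66 in matched and 3.83 in control-only peaks of control cells, and 4.54 in matched and 3.58 in Runx1KO-only peaks of Runx1KO cells. Median width was 299 bp against 142 bp in control cells and 329 bp against 158 bp in Runx1KO cells. Of the control peaks with 10 to 13 fragments at the summit 22.96% (20.8 to 25.3) were matched. This share rose with each step in pileup and reached 87.0% (85.4 to 88.4) at 25 to 29 fragments and 94.9% (93.7 to 95.9) at 40 or more. In Runx1KO cells the share went from 32.0% at 14 to 16 fragments to 95.8% at 40 or more. A control-only or Runx1KO-only call therefore mostly concerned peaks near the lower limit of detection.

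**Figure D1:**
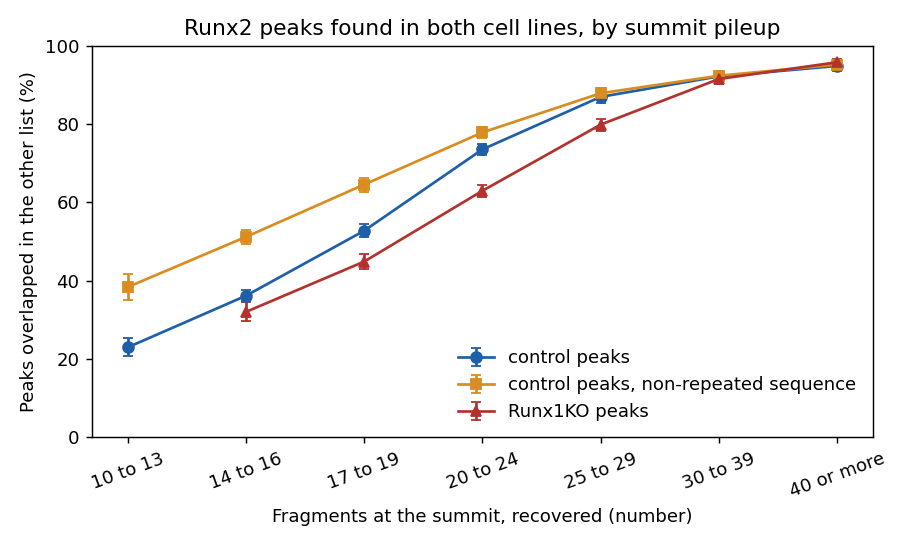
Share of Runx2 peaks matched in the other list (y axis, percent) by fragments at the summit (x axis, bins of pileup), for all control peaks, control peaks in non-repeated sequence and Runx1KO peaks, with bars giving 95% Wilson intervals. The control line climbs from 22.96% in the lowest bin to 94.9% in the highest, and the non-repeated control peaks lie above all control peaks in the lower bins, at 38.4% in the lowest.

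A large part of the control-only peaks lay in repeated DNA. For each peak the genome-wide copy number of every 25-base word in the 200 bp around its summit was counted, and a peak was called repeated when the median word occurred at least 10 times. By this measure 12.6% of windows spaced evenly through the genome were repeated, and so were 2752 of 6584 control-only peaks (41.8%, 40.6 to 43.0), but only 3.01% of matched control peaks and 6.21% of Runx1KO-only peaks. The median repeated control-only peak lay in sequence present 2169 times, against 77.5 times for the repeated peaks that were matched. Outside ATAC-seq peaks 68.5% of the control-only peaks were repeated. The Runx1 list of control cells was repeated to a similar degree, in 40.4% of 9977 peaks with known sequence. Reads from such copies cannot be assigned to 1 of them with confidence, and whether their handling differed between the libraries was not tested.

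In non-repeated sequence the order of the lists was the other way round, with 14284 control and 14787 Runx1KO peaks. Of these, 73.2% (72.4 to 73.9) of control and 70.1% (69.3 to 70.8) of Runx1KO peaks were matched, leaving 3832 control-only and 4423 Runx1KO-only peaks. In repeated sequence there were 3076 control and 606 Runx1KO peaks, of which 10.5% and 51.7% were matched. The larger number of control peaks and their lower matched share thus rested on repeated sequence.

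The same held for the X chromosome, which stood apart from the autosomes. It carried 541 control but 310 Runx1KO peaks, a ratio of 0.573, and 37.3% (33.4 to 41.5) of its control peaks were matched. On the autosomes the ratio ran from 0.802 on chromosome 13 to 1.004 on chromosome 11, and the matched share from 56.6% to 71.9%. On X 282 of the control peaks were repeated. Without repeated sequence the X ratio was 1.05, the autosomes ran from 0.956 to 1.09, and 72.6% of the control peaks on X were matched. On Y and its unplaced sequence, 41 control peaks and 4 Runx1KO peaks were listed.

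ATAC-seq measures open chromatin by the cutting of a transposase, and the authors sorted its peaks into those that lost accessibility in Runx1KO cells (closing), those that gained it (opening) and those that kept it (stable). Of the control Runx2 peaks 9732 overlapped stable, 1982 closing and 353 opening regions, and 5528 overlapped none. The Runx1KO list held 10246, 1836, 322 and 3204 peaks in the same order. In stable regions 80.1% (79.3 to 80.9) of control Runx2 peaks were matched. In closing regions 70.7% (68.7 to 72.7) were matched, so that most Runx2 peaks in chromatin that lost accessibility were still called in Runx1KO cells. In opening regions the share was 57.8% (52.6 to 62.8). Outside ATAC-seq peaks it was 27.3% (26.1 to 28.5), or 47.7% (45.7 to 49.7) in non-repeated sequence. Of the Runx1KO peaks 76.0% in closing, 64.6% in opening and 75.1% in stable regions were matched, and 47.0% outside them. Opening regions thus held few Runx2 peaks in either line, and Runx1KO cells did not have more of them there than control cells.

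**Figure D2:**
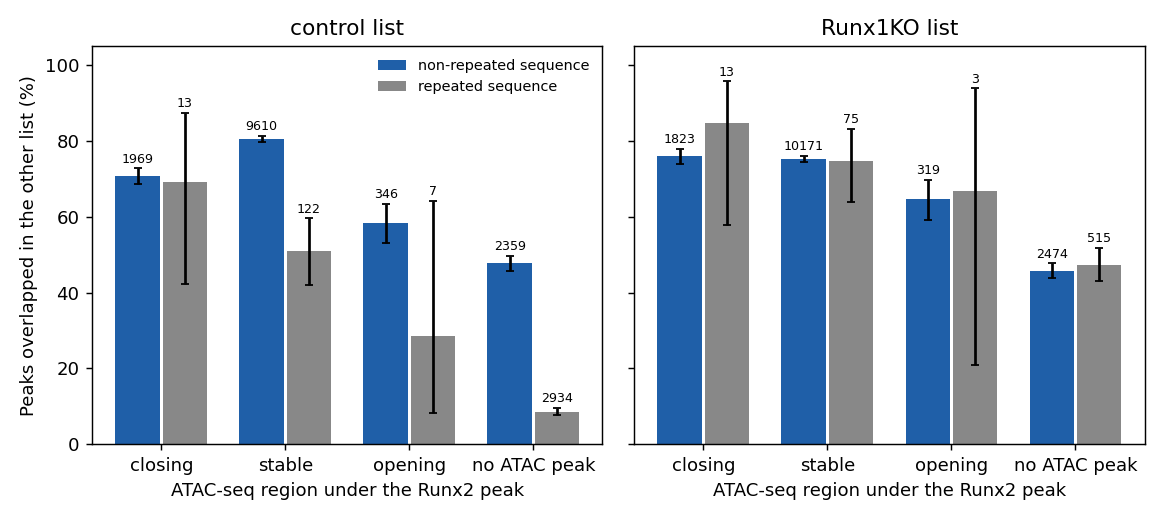
Share of Runx2 peaks matched in the other list (y axis, percent) by ATAC-seq class of the region (x axis), with a panel each for the control and Runx1KO lists, blue bars for non-repeated and grey bars for repeated sequence, error bars for 95% Wilson intervals and the number of peaks above each bar. Outside ATAC-seq peaks 8.55% of 2934 repeated control peaks were matched, against 47.7% of the 2359 non-repeated ones.

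Runx1 had been mapped in control cells, and Runx2 peaks at these sites were retained more often. Of the 6191 control Runx2 peaks that overlapped a Runx1 peak 82.4% (81.4 to 83.3) were matched, against 50.9% of the 11404 without one, a difference of 31.5 percentage points (30.1 to 32.8). Peaks with a Runx1 peak were also stronger, with a median fold of 5.37 against 3.91, and within 4 equal groups by fold the difference was 18.5, 9.82, 15.98 and 11.6 points from the weakest to the strongest group. In non-repeated sequence 90.8% with and 62.7% without a Runx1 peak were matched. Among non-repeated peaks with a Runx1 peak, 85.0% (82.6 to 87.0) of 990 in closing and 95.4% (94.6 to 96.0) of 3701 in stable regions were matched, and these intervals did not overlap. Without a Runx1 peak the shares were 56.4% and 71.1%.

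Runx1KO-only peaks seldom lay at former Runx1 sites. In non-repeated sequence 140 of 4423 Runx1KO-only peaks (3.17%) overlapped a Runx1 peak, against 494 of 3832 control-only peaks (12.9%) and 46.4% of matched control peaks. In closing regions this was the case for 16 of the 438 Runx1KO-only peaks. The Runx1 list was made from control cells alone, so that a site strong in control cells could enter both control lists, and this part of the difference cannot be told apart from the loss of Runx1.

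Within unique pairs the fold enrichment of Runx2 was slightly lower in Runx1KO cells, while the -log10 q of the same peaks was higher, with a median log2 ratio of 0.19. The median log2 ratio of fold, Runx1KO over control, was -0.05 (interval of the median -0.06 to -0.04), and fold was lower in Runx1KO cells in 57.8% of the pairs. Peaks were slightly wider in Runx1KO cells, with a median log2 ratio of width of 0.11. Fold differed by more than 1 on the log2 scale in 29 pairs that were lower (0.287%) and 6 that were higher (0.0594%) in Runx1KO cells. When pileups were divided by the lowest background of their list, 220 pairs (2.18%) fell below and 99 (0.980%) lay above a 95% counting range. That range came from counting error of the fragments around the median ratio of all pairs, -0.094, and is not a replicate error. In total 3.16% of the pairs lay outside it, less than such a range leaves outside by counting error alone.

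Pairs below the counting range were most frequent in closing regions with a Runx1 peak. In the 822 such pairs the median log2 ratio of fold was -0.15 (-0.17 to -0.12), fold was lower in 71.0%, and 84 pairs (10.2%) lay below the counting range against 15 (1.82%) above it. In 514 closing pairs without a Runx1 peak the median was -0.03 (-0.06 to 0.01), with 14 pairs below and 14 above. In 3324 stable pairs with a Runx1 peak it was -0.07 (-0.08 to -0.06), with 69 (2.08%) below and 20 above, and in 3771 stable pairs without one it was -0.02. The 88 opening pairs with a Runx1 peak had a median of -0.18 (-0.28 to -0.04), with 4 pairs below and 4 above. Pairs were also split into 4 equal groups by their mean pileup, since strong peaks can fall out of the range more easily. From the weakest to the strongest group the closing pairs with a Runx1 peak had medians of -0.17, -0.17, -0.17 and -0.12, and the stable pairs with a Runx1 peak had -0.03, -0.04, -0.07 and -0.07. Closing pairs without a Runx1 peak showed no such pattern, with medians of -0.06, 0.02, -0.01 and -0.06 against -0.02, -0.01, -0.01 and -0.06 in stable pairs without one. The Runx1 list came from control cells alone, and closing regions were more accessible in control cells. Both choices can favour pairs that were strong in control cells, and the split by mean pileup does not remove this. This part of the fall cannot be told apart from the loss of Runx1.

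**Figure D3:**
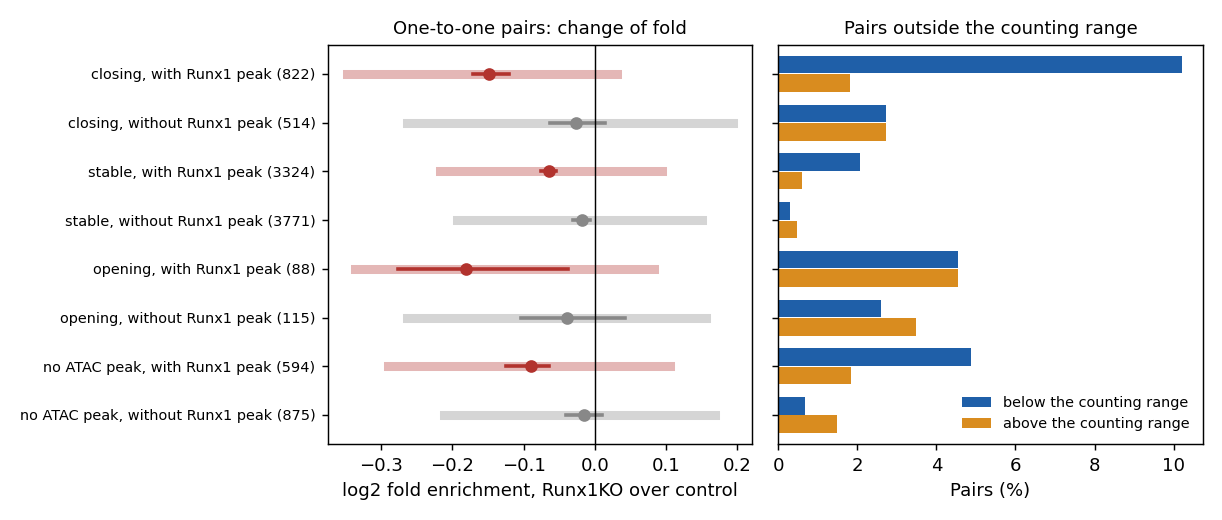
Left, log2 ratio of Runx2 fold enrichment, Runx1KO over control (x axis), in unique pairs by ATAC-seq class and presence of a Runx1 peak (rows, with the number of pairs), where points are medians, dark bars their 95% intervals and pale bars the quartiles. Right, share of the same pairs below (blue) and above (orange) the counting range (x axis, percent), which is highest below the range in closing pairs with a Runx1 peak, at 10.2%.

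The Runx sequence was found under both matched and unmatched peaks, and the order of the classes changed when repeated DNA was set aside. On either strand of the 200 bp around the summit, TGTGGT was present in 41.7% (40.8 to 42.6) of all matched, 30.8% (29.7 to 31.9) of all control-only and 38.5% (37.2 to 39.9) of all Runx1KO-only peaks. It was present in 41.4% (40.5 to 42.4) of matched, 44.1% (42.5 to 45.7) of control-only and 39.1% (37.7 to 40.6) of Runx1KO-only peaks in non-repeated sequence, against 13.8% of windows of that length spaced through the genome. In repeated control-only peaks the share was 12.2% (11.04 to 13.5), close to that of the genome. TGCGGT was present in 23.5% of matched, 12.5% of control-only and 12.5% of Runx1KO-only non-repeated peaks and in 1.18% of genome windows. Where TGTGGT was present in the 100 bp either side, the nearest copy lay a median 29 bp from the summit in matched peaks and 30 bp in both unmatched classes.

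In non-repeated sequence the share differed more between chromatin classes than between matched and unmatched peaks. In closing regions TGTGGT lay under 67.8% of matched, 63.2% of control-only and 57.3% of Runx1KO-only peaks. In stable regions it lay under 32.3%, 28.4% and 24.7%, and outside ATAC-seq peaks under 70.4%, 58.6% and 59.9%. The AP-1 sequence, TGAGTCA or TGACTCA, bound by Fos and Jun dimers, was present in 23.7% of matched, 15.3% of control-only and 20.5% of Runx1KO-only peaks of closing regions, against 3.10% of genome windows. The GC box GGGCGG, frequent in promoters, was present in 39.3% of matched peaks in stable regions. A match of these letters is a description of the sequence and not a measured binding site.

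**Figure D4:**
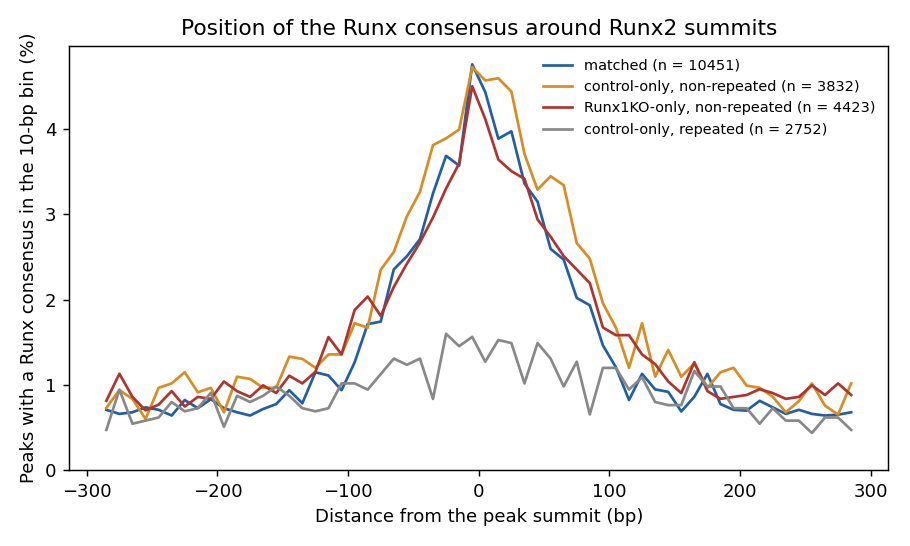
Share of peaks with a TGTGGT match (y axis, percent of peaks per bin) by distance from the summit (x axis, bp), for matched, control-only and Runx1KO-only peaks in non-repeated sequence and for repeated control-only peaks. The curves of the 3 non-repeated classes peak at the summit, where the median distance of the nearest match is 29 to 30 bp, and the curve of the repeated control-only peaks stays at or below 1.6% in every 10-bp bin.

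Matched peaks lay nearer to genes than unmatched ones. Summits fell within 1 kb of an annotated transcription start in 48.1% (47.1 to 49.0) of matched control peaks, 17.5% (16.6 to 18.4) of control-only and 35.3% (33.9 to 36.6) of Runx1KO-only peaks, and in non-repeated sequence in 49.4%, 28.99% and 37.4%. Among non-repeated control-only peaks 41.6% lay in introns and 45.5% between genes.

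Of the 100 control peaks with the highest fold, from 10.3 to 15.5, 98 were matched, 98 overlapped a Runx1 peak and 67 lay in stable regions. Of the 100 Runx1KO peaks with the highest fold 99 were matched and 95 overlapped a Runx1 peak. The strongest pair, next to Gm6505, had a fold of 15.5 in control and 13.6 in Runx1KO cells. The Hmgn1 pair had 14.5 and 13.2, with 64 fragments in each, and the Fam71f1 pair had 13.7 and 13.1, with 93 and 104 fragments. Pairs at the start of Ccdc77 (13.9 and 12.3) and in an intron of Eml1 (13.7 and 11.4) completed the 5 highest. Hmgn1, which encodes a nucleosome-binding protein, was at 863 ± 21.3 TPM in the control line and at 981 ± 15.0 TPM after the knockout (SD, n = 3 libraries of each line), and Fam71f1 had at most 1.1 TPM in any of the 6 libraries.

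Strong control-only peaks mostly overlapped Runx1 peaks, though less often than the strongest matched ones. Of all control peaks 35.2% overlapped a Runx1 peak, 11.3% lay in closing regions and 17.5% in repeated sequence. Of the 100 matched control peaks with the highest fold, from 10.3 to 15.5, 98 overlapped a Runx1 peak. Of the 100 control-only peaks with the highest fold, between 6.11 and 10.5, 72 overlapped a Runx1 peak, 34 lay in closing regions and 16 in repeated sequence. The highest was near Akap14 on X (chrX:34718920-34719228, fold 10.5, 42 fragments), at -10.3 kb from the gene start, where negative values lie upstream. Peaks near Cntn3 (fold 10.3) and Gm815 (10.0) also lay in closing regions, and those near Taf1 on X (9.77) and Dhrs7 (9.29) in stable regions. All 5 overlapped a Runx1 peak and none was repeated. Taf1, a subunit of the general factor TFIID, had 54.1, 49.9 and 56.7 TPM in the control line and 45.3, 44.7 and 46.0 TPM in Runx1KO cells. Dhrs7 had 53.4, 59.7 and 61.0 TPM in the control line and 107.7, 97.6 and 100.6 TPM in Runx1KO cells, a log2 fold change of 0.80 that was below the limit of 1 set for a call. The other 3 genes had at most 1.0 TPM in any of the 6 libraries.

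Strong Runx1KO-only peaks seldom overlapped Runx1 peaks. Of all Runx1KO peaks 34.1% overlapped a Runx1 peak and 11.8% lay in closing regions. For all Runx1KO-only peaks the shares were 4.60% and 9.17%. Of the 100 Runx1KO-only peaks with the highest fold, between 5.28 and 9.92, 12 overlapped a Runx1 peak and 32 lay in closing regions. The highest was near Akap7 (chr10:24792462-24792917, fold 9.92, 51 fragments) in a closing region, followed by a peak 145 kb from the start of Kitl (fold 8.74, closing), one in an intron of Kctd10 (8.25, stable), one near Tbx18 (8.13, outside ATAC-seq peaks) and one near Tnfsf4 (7.69, closing). None of the 5 overlapped a Runx1 peak. Kitl, the ligand of the receptor Kit, fell from 17.2 ± 1.15 TPM (SD, n = 3) in control cells to 0.3 TPM in each Runx1KO library, a log2 fold change of -3.80 (adjusted p = 2.24e-08). Tbx18, a transcription factor of the developing ureter, had 57.3 ± 2.51 TPM in the control line and 32.4 ± 2.56 TPM in Runx1KO cells, a log2 fold change of -0.80 that was not called.

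Among 4983 unique pairs with a fold of at least 5 in either line, leaving out chromosome 18, fold fell by more than 1 on the log2 scale in 28 and rose by more than 1 in 6. Of the 28 that fell, 17 lay in closing regions, which held 16.1% of these pairs, and 1 of the 6 that rose did. The largest fall was at a site -1432 kb from Pcdh10, from a fold of 12.6 with 51 fragments to 3.66 with 17 fragments, a log2 ratio of -1.78. Falls followed near Arglu1 (8.53 to 3.65), Stk31 (8.50 to 3.66) and Tmem107 (6.55 to 2.85), and in an intron of Ano10 (10.3 to 4.47). The sites near Pcdh10, Stk31 and in Ano10 lay in closing regions with a Runx1 peak. The largest rises were in an intron of Pphln1 (3.91 to 8.80), near Vps54 (4.09 to 9.16, repeated sequence in an opening region), in introns of Fam135b (4.40 to 9.08) and Msrb3 (4.15 to 8.52), and near 1700010D01Rik on X (5.62 to 11.4). The nearest gene start lay far from several of these sites, and no regulatory link was measured.

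RNA-seq gave the RNA levels of the factors, not their protein. By Western blot the study reported that Runx1 protein was lost in Runx1KO cells and that Runx2 remained unchanged. Runx2 had 6.0, 4.9 and 5.5 TPM in the control line and 3.9, 3.7 and 3.6 TPM in Runx1KO cells, so that the groups did not overlap, with a log2 fold change of -0.45 (limma adjusted p = 1.75e-03) that did not reach the limit of 1. Runx1 had 18.7, 15.6 and 17.9 TPM in the control line and 30.3, 30.1 and 28.5 TPM in Runx1KO cells, a value for the whole gene that cannot show whether the exon is missing. Runx3 had 0.1 to 0.3 TPM in control cells and was listed at 0.0 in Runx1KO cells. Cbfb, the shared partner, changed by -0.10 on the log2 scale (adjusted p = 0.0794). Of the corepressors, Tle3 changed by -0.94 and Tle4 by 0.95. In such bulk libraries fewer cells of a kind and less RNA per cell cannot be told apart. The libraries of a line came from triplicate cultures, with no clone named, so p-values measure the spread between cultures.

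At Runx1 itself the guides placed the expected deletion. Runx1 guide 1 matched the plus strand of chr16:92695999-92696018 and guide 2 the plus strand of chr16:92695721-92695740, printed here with the adjacent PAM in capitals.
Runx1 guide 1: cacaacaagccgattgagtaAGG
Runx1 guide 2: aggagtaccttgaaagcgatGGG
Cuts at the usual Cas9 position would remove 278 bp, chr16:92695738-92696015, which includes most of the coding exon at 92695729 to 92695982. The breakpoints in the cells were not given. Peaks were assigned to genes by regulatory domains, which reached from 5 kb upstream to 1 kb downstream of each start and outward to the next gene's domain up to 1000 kb. The domain of Runx1 had 12 control and 5 Runx1KO peaks of Runx2. All 5 Runx1KO peaks were matched. Matched control peaks made up 62.0% of all, and 24 of 41 (58.5%) at the 8 listed Runx factors and partners. At Runx1 5 of the 12 control peaks were matched and 7 were not, a count too small to read as particular to this gene. The strongest of those 7, chr16:92696733-92697325 with a fold of 8.80 and 71 fragments, lay in a closing region with a Runx1 peak, inside the first exon of transcripts Runx1-203 and Runx1-205 and 718 bp outside the expected deletion. A deletion larger than expected and a loss of Runx2 from intact DNA cannot be told apart from these files. The pair at the upstream start of the gene had folds of 7.72 and 8.55, the pair at chr16:92654059-92654497 had 9.47 and 5.76, and the pair at chr16:92621157-92622066 had 7.03 and 6.77.

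All 6 mesenchyme markers were present in control cells, and 3 of them, Fn1, Zeb1 and Zeb2, were lower in Runx1KO cells, where Zeb1 and Zeb2 had at most 0.2 TPM. Vim, a mesenchymal filament, was at 2749 to 2887 TPM in all 6 libraries. The 6 epithelium markers had at most 3.6 TPM in any control library, and the 4 of them that were tested, Krt8, Krt18, Cldn4 and Grhl2, were all higher in Runx1KO cells, with Krt8 at 2302 to 2394 TPM. Epcam was listed at 0.0 in all 6 libraries and Cdh1 had at most 0.3 TPM. Of the blood markers Ptprc was listed at 0.0 throughout. Of the kidney mesenchyme genes Osr1, Gdnf, Pax2, Sall1 and Eya1 were present in control cells and Six2, Hoxd11 and Wt1 had at most 0.3 TPM. The other blood marker, the myeloid factor Spi1, rose from at most 0.1 TPM to between 22.6 and 26.8 TPM in Runx1KO cells. Across all genes 666 of 13067 tested were lower (5.10%) and 1033 were higher (7.91%) in Runx1KO cells, at a limma adjusted p under 0.05 and a log2 fold change beyond 1, and the median gene changed by -0.06.

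In their regulatory domains, mesenchymal regulators had 21 control and 26 Runx1KO peaks, and 16 of the control peaks (76.2%) were matched, against 62.0% of all control peaks. These peaks are few, and the difference from all control peaks was not tested. Of the 6 tested genes 3 were lower and 0 higher, with a median log2 fold change of -1.08. The 3 lower genes, Zeb1, Zeb2 and Twist2, had been named by the study as lower, so their direction is not independent evidence. Zeb1, a repressor of epithelial genes, fell from 15.1, 14.2 and 15.6 TPM to 0.1, 0.2 and 0.2 TPM. Its pair of peaks at -194 kb went from a fold of 7.28 to 5.53, and 2 weak Runx1KO-only peaks lay within 0.318 kb of its start. Zeb2 fell by 2.37 on the log2 scale, while its pair at 148 kb rose from a fold of 4.89 to 7.72. Twist2, a regulator of mesenchymal fate, fell by 1.38 although all 7 of its control peaks were matched and 4 further Runx1KO-only peaks were present.

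Genes of the kidney mesenchyme had 33 control and 31 Runx1KO peaks, 22 of the control peaks (66.7%, near the 62.0% of all) were matched, and 3 of 5 tested genes were lower, against 5.10% of all genes. Among the lower genes Osr1 and Gdnf had been named by the study as lower, so their direction is not independent evidence. Osr1, which marks early kidney mesenchyme, fell from 70.9, 64.1 and 64.3 TPM to 0.3, 0.5 and 0.4 TPM. Of its 12 control peaks 6 were matched, and the strongest, 657 kb from the start in a closing region with a Runx1 peak, had folds of 11.2 and 8.94. Its other strong closing peaks had 8.87 and 7.72 at 324 kb, and 8.22 and 5.28 at 282 kb. Gdnf, the ligand that draws out the ureteric bud, fell by 3.64, and each of its 4 control peaks was matched, including one in a closing region at 52.1 kb with folds of 8.52 and 8.02. Eya1 fell by 1.32, and its pair at 36.1 kb went from 7.57 to 3.86.

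The 6 further loci were genes the study itself had chosen from these cells, so their direction is not independent evidence. All 6 were lower, with 19 control and 21 Runx1KO peaks, of which 13 control peaks (68.4%, against 62.0% of all) were matched. Inhbb, a subunit of activin, fell from 48.9, 45.6 and 45.4 TPM to at most 0.2 TPM, with 4 of 7 control peaks matched and 4 Runx1KO-only peaks. At Tnc, an extracellular matrix gene, the closing peak at -55.7 kb went from a fold of 8.06 to 4.88. At Pak3, a kinase on X, the closing peak at -17.1 kb had a fold of 7.21 in both lines. Igfbp4 and Zfp810 had closing peaks with folds of 6.57 and 7.63, and of 7.15 and 7.67, in control and Runx1KO cells, and both genes fell by more than 3 on the log2 scale. The matched share at these loci was near that of all control peaks and is no result about them.

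**Figure D5:**
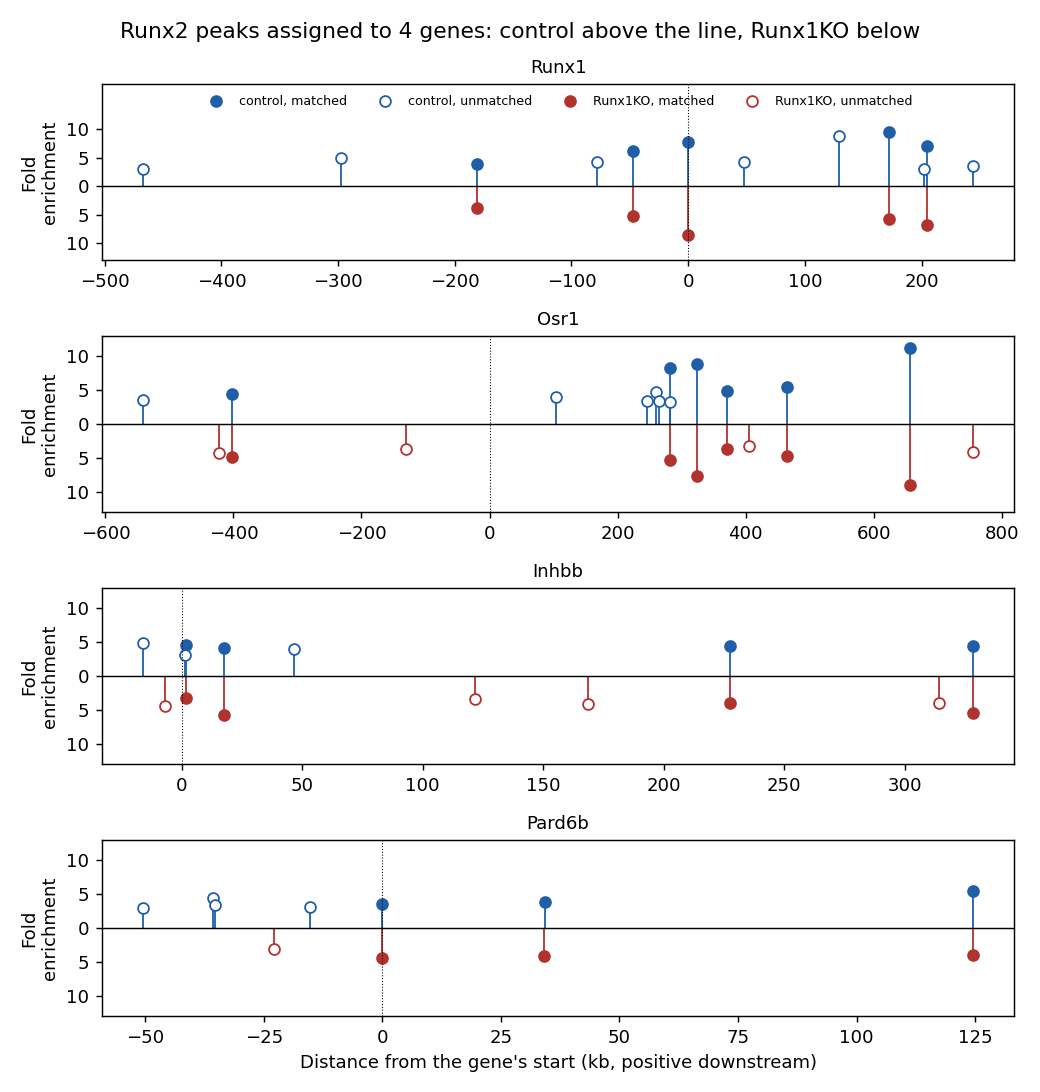
Fold enrichment of Runx2 peaks (y axis) by distance from the gene start (x axis, kb) at Runx1, Osr1, Inhbb and Pard6b, for control and Runx1KO lists, with matched and unmatched peaks drawn apart. At Osr1 the highest control peak, at 657 kb, has a fold of 11.2 in control and 8.94 in Runx1KO cells, and at Runx1 the control-only peak at 129 kb has 8.80.

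Epithelial genes had 27 control and 16 Runx1KO peaks, where 2 control-only peaks that lay in the domains of both Krt8 and Krt18 were counted once. Of the control peaks 13 (48.1%, against 62.0% of all) were matched, and of the 14 control-only peaks 4 were repeated. The peaks are few here too, and the difference in matched share was not tested. Of 11 tested genes 9 were higher, against 7.91% of all genes, and 0 lower, with a median log2 fold change of 2.92. The study itself had named Grhl2, Pard6b, Itgb4, Ovol1, Cldn4 and Cgn as higher in these cells. Their direction, and with it much of this count, is not independent evidence. Krt8 and Krt18, the keratins of simple epithelia, rose by 9.46 and 4.89, and Cldn4, a tight junction claudin, rose by 7.70. Grhl2, an activator of epithelial genes, rose from 0.1 TPM in each control library to 5.0, 5.0 and 4.9 TPM, and its sole control peak, with a fold of 3.18 and 12 fragments, was control-only. Pard6b, a polarity gene, rose by 2.92, and 3 of its 4 control-only peaks lay in opening regions, with folds of 3.05 to 4.46 and 16 to 26 fragments. Krt8, Cldn4 and Itgb4 likewise lost weak peaks of at most 18 fragments. Anywhere in the genome, 36.1% of control peaks at 14 to 16 and 52.8% at 17 to 19 fragments were matched, so losses at this pileup were common. They were less common at the higher pileups reached at Pard6b. There 73.6% of control peaks at 20 to 24 and 87.0% at 25 to 29 fragments were matched. In Runx1KO cells Krt18, Epcam and Pard6b each had 1 Runx1KO-only peak.

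AP-1 genes had 39 control and 31 Runx1KO peaks, 24 of the control peaks (61.5%, near the 62.0% of all) were matched, and 3 of 8 tested genes were higher, against 7.91% of all genes. Fos rose from 400.1, 412.7 and 421.7 TPM to 1467.3, 1548.6 and 1485.1 TPM, and Fosb and Atf3 rose by 1.81 and 1.43 on the log2 scale. At Fos the peaks around the start were matched, with folds of 6.41 and 6.37 at -1.46 kb, and 5 peaks between -55.9 and -26.6 kb were control-only. Skeletal targets of Runx2 were mostly silent. Of 3 tested genes Spp1 fell by 1.12, and its start carried a matched pair with folds of 5.55 and 6.03. At Alpl, which had at most 0.3 TPM, the closing pairs at -11.4 and -51.5 kb went from 8.45 to 4.27 and from 5.91 to 2.77.

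The share of lower genes beside unmatched peaks depended on how genes were assigned, while genes without a Runx2 peak were called higher more often than all genes. Of the 11633 tested genes found in the annotation 5.15% were lower and 7.70% higher. Among 3174 genes with a non-repeated control-only peak 6.77% (5.95 to 7.70) were lower and 7.59% (6.72 to 8.57) higher. Among 3832 genes with a Runx1KO-only peak the shares were 6.16% (5.44 to 6.96) and 6.08% (5.37 to 6.88), and among 7247 genes with a matched peak they were 4.95% and 5.40%. Genes with unmatched peaks of one list alone, in non-repeated sequence, were lower in 5.93% (4.92 to 7.12) for control-only and 4.97% (4.16 to 5.93) for Runx1KO-only peaks, and both intervals held the 5.15% of all genes. The same groups were higher in 8.61% (7.40 to 10.0) and 5.88% (4.99 to 6.91). The first of these intervals held the 7.70% of all genes and the second lay below it. By the nearest start the higher shares were 8.45% and 5.71%. With starts within 20 kb they were 7.62% (6.38 to 9.08) and 5.66% (4.77 to 6.71), and these intervals overlapped. With starts taken within 20 kb of a summit, 4.58% (3.78 to 5.53) near non-repeated control-only and 4.09% (3.43 to 4.86) near Runx1KO-only peaks were lower. The first interval held the 5.15% and the second lay below it. With the nearest start within 100 kb these shares were 6.91% (5.91 to 8.06) and 5.84% (5.02 to 6.80). The 259 genes with a pair below the counting range were lower in 10.8% (7.59 to 15.2) and higher in 6.56%. The 116 genes with a pair above it were lower in 10.3% (6.02 to 17.2) and higher in 9.48%. A high share of lower genes thus went with a pair outside the range on either side. Over all pairs 3.16% lay outside the range, which came from counting error and is not a replicate error. Of 2368 genes with no Runx2 peak in their domain 12.8% (11.5 to 14.2) were higher and 4.98% lower. Of 2860 genes without a Runx2 summit within 20 kb, 13.2% were higher and 8.39% (7.43 to 9.46) lower. Long domains hold more peaks of every class, and the length of the domain was not tested.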

How the data were processed

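Runx2 ChIP-seq peaks of control and Runx1KO cells were compared with Runx1 ChIP-seq peaks, ATAC-seq peaks and RNA-seq of the same lines. The members and gene lists were chosen with earlier results of these data known. Per the methods, the authors aligned reads to mm9 with STAR, removed duplicates, and ran MACS2 after merging the reads of 3 replicates. The lists the authors deposited give a fold (ratio) of enrichment at the summit, -log10 p and -log10 q values, and positions. The methods name broad peaks and a q limit of 0.01, while the lists have the columns of narrow peaks, q-values up to 0.0494, and 1 library name in the peak names of each list. Whether a list was made from merged reads or from 1 library is therefore open. For RNA-seq the authors deposited TPM of RefSeq genes with 1 decimal. Depth itself cannot be read from TPM or from peak lists. The lowest background, which depends only in part on the total of reads, was higher in the Runx1KO list. The ATAC-seq lists also hold the authors' own log2 fold changes and -log10 values, which were not used, so the planned ATAC-seq medians per chromosome were not made. The 3 RNA-seq columns of ZebDKO cells were not used.

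Peaks were intersected with bedtools 2.31.1 and sequences read from mm9 with pysam 0.24.0, and tables were made with Python 3.11.15. Fragments at the summit were recovered from fold and p as whole numbers, and met the listed -log10 p within a tolerance of 0.001 for all peaks. The local background followed from the fold and the fragments and was not held to whole numbers. Genes and starts came from GENCODE vM1. Of the 13067 genes tested, 11633 (89.0%) were found there, 1724 of all symbols through RefSeq synonyms. limma 3.58.1 (R 4.3.3) was run on log2(TPM + 1) of genes reaching 1 TPM in at least 3 libraries, which were called at a Benjamini-Hochberg adjusted p under 0.05 and a log2 fold change beyond 1. The fit was tested on simulated data. Fold changes on this scale understate those of low genes. Peaks named in the text were the 5 of highest fold in each class, the 5 pairs of highest mean fold, and the 5 largest rises and falls of pairs with a fold of at least 5 on chromosomes other than 18. Genes named were members of the lists with unmatched peaks or a call. Replicate numbers did not pair the libraries, since same-numbered libraries had correlations of their deviations between -0.053 and 0.014.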

Additional observations from a re-analysis of the deposited data

How the results depend on the processing

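No result on peaks has a replicate check, and no paired analysis was possible for them because each line has 1 list. Of the recomputed values 41 kept their direction and stayed within the error of the value reported, 43 moved beyond it and 1 reversed, and 22 recomputed counts of genes stayed within 1.5 times the count reported. The matched shares (control, then Runx1KO) were 55.8% and 59.8% when 50% of the counted peak had to be covered, 48.5% and 54.7% for 50% of both peaks, 48.5% and 54.6% for summits at most 100 bp apart, 67.7% and 67.6% for the 10000 peaks of highest fold, 63.6% and 70.2% for peaks at a q of at most 0.01, and 63.1% in control cells when that limit held in both lists. Non-repeated sequence alone (73.2% and 70.1%), peaks on ATAC-seq peaks alone (77.9% and 74.98%) and recovered pileup were chosen after seeing the data. The median log2 ratio in unique pairs was -0.094 with recovered pileup in place of fold, and it reversed to 0.19 with -log10 q. Summits of all overlapping pairs lay 49 bp apart. The matched share outside ATAC-seq peaks was 28.6% with the summit as the test of overlap, 28.5% at a q of at most 0.01 and 47.7% in non-repeated sequence. The difference with and without a Runx1 peak was 23.3 points at 50% overlap, 28.1 in non-repeated sequence, and 18.5, 9.82, 15.98 and 11.6 in 4 equal groups by fold.

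TGTGGT lay in 47.2% of matched, 28.4% of control-only and 36.7% of Runx1KO-only whole peaks, in 29.6%, 20.6% and 26.6% within 50 bp of the summit, and in 44.1% of non-repeated control-only peaks. Starts lay within 5 kb of 56.6%, 24.9% and 45.7%, and within 1 kb of 49.4%, 28.99% and 37.4% in non-repeated sequence. With genes taken within 20 kb, 4.58% near non-repeated control-only, 4.09% near Runx1KO-only and 3.79% near matched peaks were lower. The 5.15% of all genes lay inside the interval for control-only peaks (3.78 to 5.53) and above those for the other classes. With the nearest gene 4.80% near matched peaks were higher. The causes were not tested. With the replicate block 669 genes were lower and 1039 higher, with a pseudocount of 0.1 TPM 821 and 1201, with no filter 680 and 1037, with median-ratio scaling 617 and 1085, and in the table of 6 libraries 618 and 937. Leaving out 1 library at a time gave 660 to 681 lower and 1018 to 1041 higher, and no library changed these counts by over 1.5 times.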
